A study of Mus musculus with 4 samples.

Results

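The surface of a joint is kept slippery by a thin superficial zone of articular cartilage, and 7 genes of that zone were followed here through all cell groups of the growing mouse knee and its neighbouring bone ends. They are Prg4, Cilp, Cilp2, Creb5, Erg, Abi3bp and Clu, taken by their symbols from the 31053 features of the count tables, and each symbol named 1 feature. Cells were taken from tibial and femoral epiphyses, digested with Liberase and captured with Chromium version 3 chemistry, which counts each transcript molecule by a unique molecular identifier (UMI). Each of the 4 groups is 1 library, labelled Sox9fl:fl AcanCreERT2/+ (called mutant) at postnatal day 19, wild type (WT) at day 19, mutant at day 13 and WT at day 13. CreERT2 is a recombinase that works only once tamoxifen is given, here driven by Acan, the gene for aggrecan of cartilage matrix, and it removes the floxed stretch of Sox9, the master transcription factor of cartilage. The sources used here do not state the schedule of tamoxifen, the floxed exons, the strain or the number of mice behind a library.

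Prg4 encodes lubricin, a glycoprotein that superficial chondrocytes and the cells lining the synovium secrete into the joint fluid, where it coats the cartilage and lets the surfaces glide. Cilp and Cilp2 encode related proteins of the cartilage matrix, and the first is known to bind and restrain the growth factor TGF-beta 1. Creb5 is a transcription factor of the CREB and ATF family that is known to drive lubricin in superficial chondrocytes, and Erg is an ETS transcription factor of developing joints and of endothelium. Abi3bp encodes a secreted matrix protein, and Clu encodes clusterin, a secreted chaperone.

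The coordinates below are those of GRCm38, counted from 1. Prg4 (ENSMUSG00000006014) lies on the minus strand at chr1:150449412-150466165, where it overlaps Tpr on the other strand. Whether counting used strand is not stated in the sources used here, and the part of this overlap in the Prg4 counts was not tested. Cilp (ENSMUSG00000042254, plus strand) lies at chr9:65265180-65280605 and Cilp2 (ENSMUSG00000044006, minus strand) at chr8:69880369-69887687. Creb5 (ENSMUSG00000053007, plus strand) spans chr6:53287270-53700376, where it overlaps Gm25818 and Gm44080 on the same strand. Erg (ENSMUSG00000040732, minus strand) spans chr16:95359169-95586593. Abi3bp (ENSMUSG00000035258) and Clu (ENSMUSG00000022037) lie on plus strands at chr16:56477878-56690135 and chr14:65968483-65981547.

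RefSeq promoter sequences of GRCm38.p6 matched 4 of the 7 genes (Cilp, Cilp2, Creb5 and Erg), and those of Cilp and Creb5 are shown because these genes were found in the same cells as Prg4. The plus strand is given 5′ to 3′, from chr9:65264930-65265179 for Cilp and from chr6:53287053-53287269 for Creb5. Capitals mark the cyclic AMP response element TGACGTCA, the palindrome that CREB proteins bind.
Cilp: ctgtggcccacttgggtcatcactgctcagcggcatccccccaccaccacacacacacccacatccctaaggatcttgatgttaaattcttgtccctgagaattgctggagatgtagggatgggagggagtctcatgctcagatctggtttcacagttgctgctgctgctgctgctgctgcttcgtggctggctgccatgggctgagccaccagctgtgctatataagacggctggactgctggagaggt
Creb5: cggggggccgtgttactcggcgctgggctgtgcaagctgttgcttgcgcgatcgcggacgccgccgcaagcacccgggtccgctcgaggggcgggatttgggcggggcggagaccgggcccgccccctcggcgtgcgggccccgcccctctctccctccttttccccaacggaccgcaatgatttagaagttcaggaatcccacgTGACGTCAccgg

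Distances to motifs are counted from RefSeq start sites, which can differ from the gene starts given above. The first Creb5 start site had TGACGTCA 45 bases before it. Searched on both strands, this motif was found in 508 of 32851 promoter windows of 250 bases, or 1.55%. The full Creb5 window ends at chr6:53287302. The 217 bases printed are its positions -250 to -34, cut where the gene start given above begins. The Cilp window held neither TGACGTCA nor the AP-1 motif TGANTCA nor the SOX motif AACAAT, searched on both strands. TGANTCA was found in 6.75% of all windows and AACAAT in 9.42%. AACAAT was found 241 bases before the Cilp2 start and 120 bases before the third of 3 Erg starts, and TGANTCA 45 bases before the second of 2 Creb5 starts. A match is a stretch of letters and does not show that a factor binds there.

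The libraries held 70507107 to 76080803 UMIs. After barcodes with under 500 genes or over 15% mitochondrial UMIs and likely doublets were left out, 9699 mutant and 7158 WT cells remained at day 19, and 7305 mutant and 6239 WT cells at day 13, and libraries shared 10 to 33 barcodes. Clustering without the 7 genes gave 29 clusters, of which 8 were chondrocyte-like. The class held 32.2% of mutant and 14.8% of WT cells at day 19, and 49.4% of mutant and 70.3% of WT cells at day 13. The clusters led by Cryba2 and by Myoc were mostly mutant (1144 and 850 cells at day 19, against 18 and 14 WT cells) and the cluster led by Il17b mostly WT (2 mutant and 260 WT cells at day 19), so values of the whole class rest on different clusters in the 2 genotypes. Sox9 in chondrocyte-like cells stood at 175 UMIs per 1000000 UMIs (CPM) in mutants and 459.6 CPM in WT at day 19, and at 199.8 CPM in mutants and 358 CPM in WT at day 13. With 1 library a group there is no measure of the spread between mice, and all intervals below cover counting error only.

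By their median over libraries, Prg4 and Cilp were highest in 1 cluster, led by Gas1, Cytl1, Msmp and Vit and here called the superficial cluster. It was picked as the chondrocyte-like cluster with the most genes of a superficial-zone list among its 25 leading genes, 2 in number, with the 7 genes left out of that count. It held 392 mutant and 200 WT cells at day 19 and 553 mutant and 457 WT cells at day 13, with median depths of 6993.5, 9545.5, 8152 and 7037 UMIs in that order. These cells made up 12.6% of mutant and 18.9% of WT chondrocyte-like cells at day 19, and 15.3% of mutant and 10.4% of WT ones at day 13. They had 17 of the 24 chondrocyte markers found among the features at 3-fold or more above blood-like clusters. The summed chondrocyte markers stood at 61345 CPM in mutants and 94881 CPM in WT at day 19, and at 54658 CPM in mutants and 103931 CPM in WT at day 13.

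The superficial cluster held 61.0% of all Prg4 UMIs of the mutant and 76.5% of those of the WT library at day 19, in 4.04% of mutant and 2.79% of WT cells. At day 13 it held 73.7% of Prg4 UMIs in mutants and 84.9% in WT. The shares of Cilp UMIs were 65.3% in mutants and 82.4% in WT at day 19, and 69.5% in mutants and 63.0% in WT at day 13. A cluster of fibroblast and tendon-like cells, led by Clec3b, Thbs4 and Angptl7, was next for both genes by that median. In WT at day 13 an unnamed cluster of 116 cells led by Lyz2 and Ly6c2 had Cilp at 151 CPM from 66 UMIs (exact 95% Poisson interval 117 to 193), above the superficial cluster at 123 CPM (112 to 135), and at 1.16 to 4.86 CPM in the other libraries. In that library the same 116 cells also had Prg4 at 629 CPM from 274 UMIs and Creb5 at 34.4 CPM. In the other libraries this unnamed cluster had 10.6 to 16.2 CPM of Prg4 and 0.8 to 6.1 CPM of Creb5. The source of these UMIs was not tested. Within each library Prg4 was higher in the superficial cluster than in the fibroblast and tendon-like cells, whereas the ranges over libraries, 2567 to 16470.4 CPM and 661 to 5781 CPM, overlapped.

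**Figure D1:**
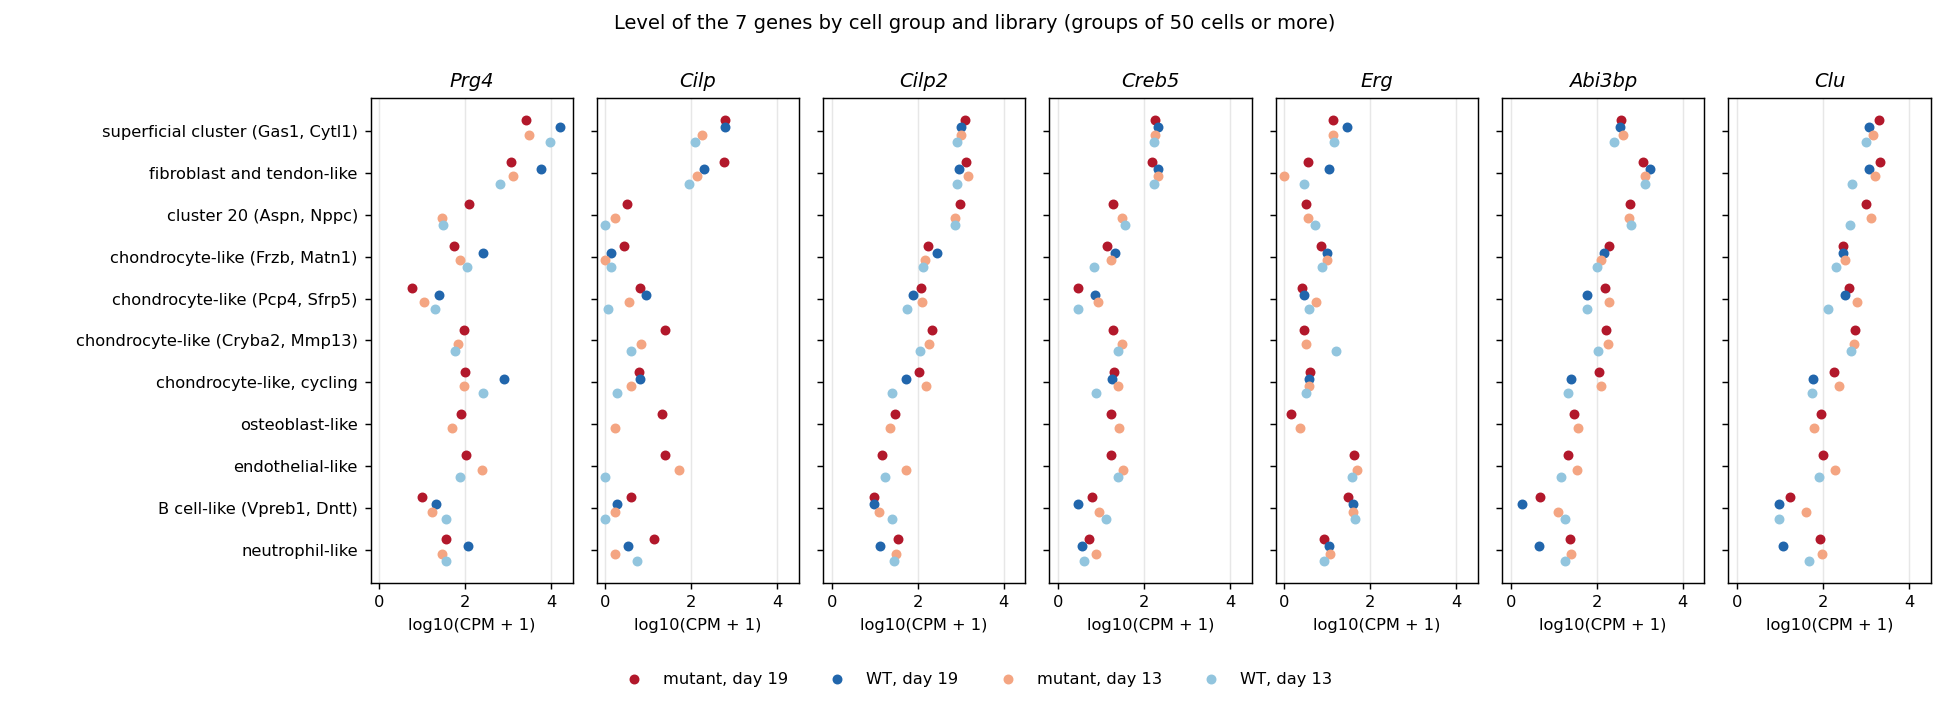
Level of each gene as log10(CPM + 1), on the horizontal axis, in 11 cell groups, with 1 point per library of 50 cells or more. Among these groups Prg4 and Cilp stood highest in the superficial cluster in each library, Abi3bp in fibroblast and tendon-like cells, and Erg in endothelial-like and early B cell-like cells.

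Cilp2 and Creb5 were at about the same level in both groups of cells. Cilp2 ranged from 836 to 1494 CPM in fibroblast and tendon-like cells and from 821 to 1269.7 CPM in the superficial cluster, and Creb5 from 154 to 206 CPM and from 173 to 214 CPM, so that neither order exceeded the spread over libraries. An unnamed cluster led by Aspn, Nppc and Cxcl12 followed with 731 to 973 CPM of Cilp2 in the 3 libraries with 50 or more such cells, whereas its Creb5 level was 17.7 to 35.3 CPM. Abi3bp was highest in fibroblast and tendon-like cells, at 1174 to 1756 CPM, then in the Aspn cluster at 577 to 638 CPM and in the superficial cluster at 257 to 399 CPM. These 3 ranges did not overlap. Clu ranged from 471 to 2171 CPM in fibroblast and tendon-like cells and from 1017 to 2052 CPM in the superficial cluster.

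Erg had another pattern. It was highest in endothelial-like cells, at 37.2 to 47.2 CPM in the libraries with 50 or more such cells, and in early B cell-like cells led by Vpreb1 and Dntt, at 28.8 to 43.0 CPM. Those ranges overlapped. The superficial cluster came next by its median, at 12.3 to 28.0 CPM from 39 to 66 UMIs per library, and neutrophil-like cells had 7.4 to 10.2 CPM. Of these, the cluster led by Ltf alone had 9.5 to 22.6 CPM, overlapping the superficial range. In mutants at day 13 it had 15.9 CPM against 12.8 CPM in superficial cells, and in the other libraries it lay below them. With cells thinned to 2000 UMIs, an Erg UMI was found in 1.32% of mutant and 3.57% of WT superficial cells at day 19, against 2.09% and 2.91% of neutrophil-like cells, with overlapping exact intervals. Erythroid-like cells had Erg at 0.53 CPM in mutants and 0.25 CPM in WT at day 19, below both.

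Lubricin transcripts were fewer in mutant superficial cells at both ages. Prg4 stood at 2567 CPM in mutants and 16470.4 CPM in WT at day 19, and at 3094 CPM in mutants and 9614 CPM in WT at day 13. Both mutant libraries lay below both WT libraries, and the gap was wider at day 19. The level in mutants was 6.42-fold lower at day 19 (log2 ratio -2.68, 95% counting interval -2.72 to -2.65) and 3.11-fold lower at day 13 (-1.64, -1.66 to -1.61). The edgeR fit with additive genotype and age over the 4 libraries gave -2.19 ± 0.270 (SE), a 4.57-fold lower level in mutants (edgeR quasi-likelihood test, adjusted p = 7.21e-14). The dispersion in this cluster was shared by all genes, so this p-value does not reflect how far the 2 ages differ for Prg4. Prg4 no longer passed when the genotype was fitted without the mutant library of day 19 (log2 change -2.10, adjusted p = 0.332) or of day 13 (-2.36, adjusted p = 0.231). Across all genes tested in this cluster the fit called 8.48%, 4.45% as higher and 4.03% as lower. Of the 7 genes it called 2, Prg4 and Clu.

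**Figure D2:**
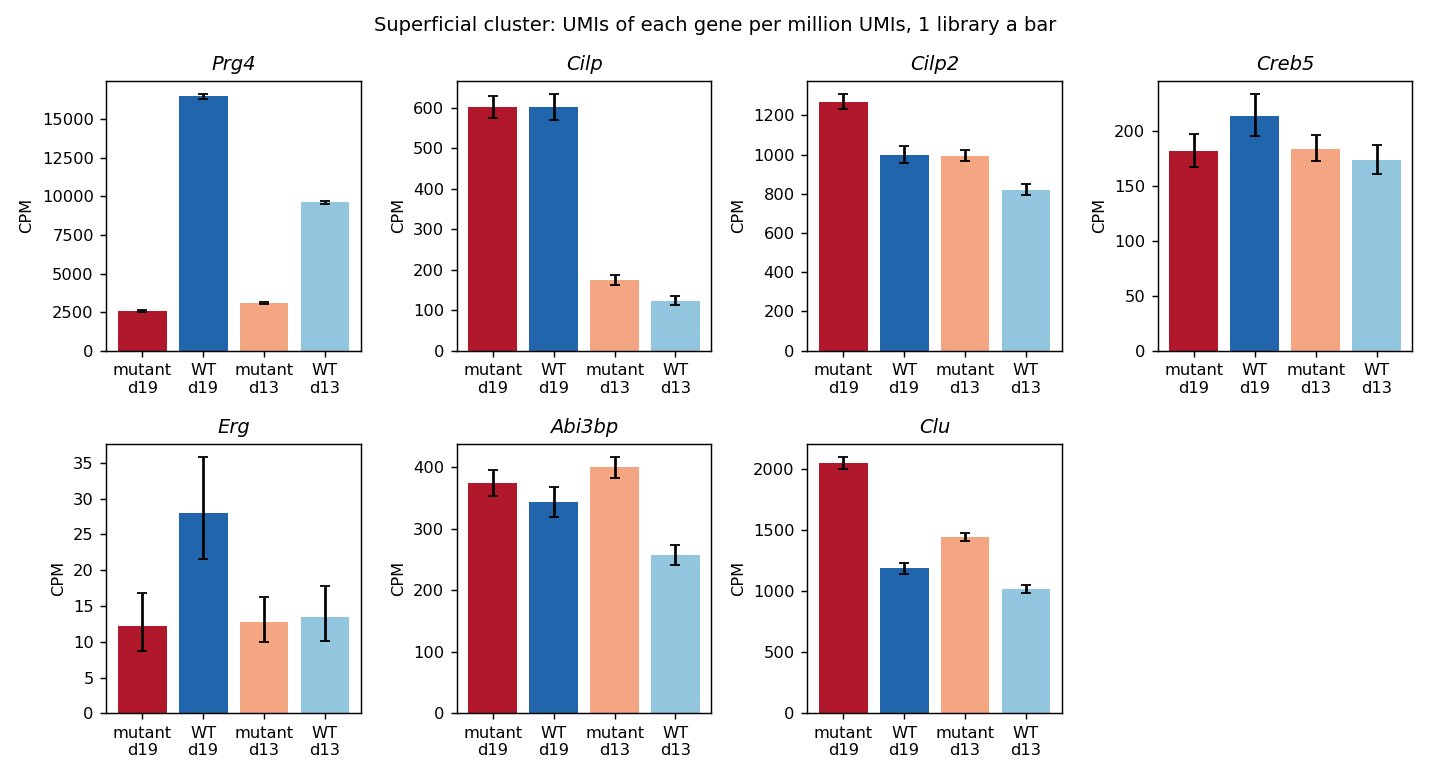
CPM of each gene in the superficial cluster, 1 bar per library with its exact 95% Poisson interval, each panel on its own axis from 0. Prg4 is at 2567 and 3094 CPM in mutants and at 16470.4 and 9614 CPM in WT, while Cilp differs by age.

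Both the share of superficial cells with Prg4 and the number of its transcripts per cell were lower in mutants. After thinning to 2000 UMIs, Prg4 was detected in 69.3% of mutant superficial cells at day 19 (exact 95% interval 64.4 to 73.9) and in 91.8% of WT ones (87.1 to 95.3). At day 13 it was detected in 58.5% of mutant cells (54.2 to 62.7) and 73.9% of WT cells (69.6 to 77.9). Neutrophil-like cells, which should lack lubricin, had a Prg4 UMI in 2.70% of mutant and 1.94% of WT cells at day 19 and in 4.59% of mutant and 4.35% of WT cells at day 13 (median depths before thinning 4344, 7296.5, 3994 and 4816 UMIs in that order). The median superficial cell held 2 Prg4 UMIs in mutants and 27 in WT at day 19, and 1 in mutants and 9 in WT at day 13. Cells with 10 or more Prg4 UMIs made up 18.3% of mutant and 73.5% of WT superficial cells at day 19, and 16.8% of mutant and 49.2% of WT ones at day 13. The mutant distributions nevertheless reached 98 and 188 UMIs in a cell at days 19 and 13, against 361 and 326 in WT.

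**Figure D3:**
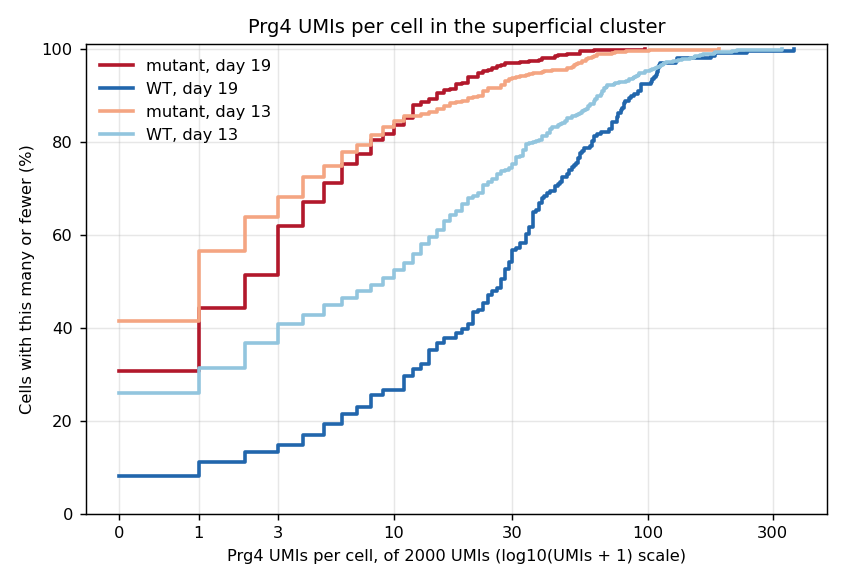
Share of superficial cells, vertical axis, with at most the number of Prg4 UMIs on the horizontal axis (log10(UMIs + 1) scale), each cell thinned to 2000 UMIs. The mutant curves rise early, with medians of 2 and 1 UMIs, and the WT curves late, with medians of 27 and 9.

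Other values moved with genotype in the same cells. Summed fibroblast and tendon markers stood at 6379 CPM in mutants and 3004 CPM in WT superficial cells at day 19, and at 7284 CPM in mutants and 4046 CPM in WT at day 13. All 12 of these markers were present in both mutant libraries, while Clec3b and Kera were at 0 in WT at day 19 and Pi16 in WT at day 13. A marker near 0 can be missed at low depth, and WT at day 19 had the fewest superficial UMIs, 2248150. Markers at 10 CPM or more numbered 8 in mutants and 8 in WT at day 19, and 9 in mutants and 8 in WT at day 13. Synovial lining markers summed to 292 CPM in mutants and 181 CPM in WT at day 19, and to 186 CPM in mutants and 87.4 CPM in WT at day 13, with all 8 above 0 in every library. Sox9 itself was at 204 CPM in mutants and 447 CPM in WT superficial cells at day 19, and at 235 CPM in mutants and 295 CPM in WT at day 13. The part of these shifts in the Prg4 difference was not tested.

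Cilp differed by age and not detectably by genotype in the superficial cluster. It stood at 602 CPM in mutants and 601 CPM in WT at day 19, and at 174 CPM in mutants and 123 CPM in WT at day 13, so both libraries of day 19 lay above both of day 13. Day 19 exceeded day 13 by a log2 ratio of 1.79 in mutants (95% counting interval 1.67 to 1.90) and 2.29 in WT (2.13 to 2.44). The edgeR fit gave 1.98 ± 0.176 for age, a 3.96-fold higher level at day 19 (adjusted p = 1.55e-25), and Cilp was the only 1 of the 7 genes called by age, against 3.27% of all genes tested. Its genotype change was 0.21 ± 0.171 (edgeR adjusted p = 0.615), although it passed in the matching cluster of a coarser clustering (0.70, edgeR adjusted p = 0.0103). The dispersion in this cluster was shared by all genes, so these p-values do not reflect a gene's own spread. With age fitted alone Cilp did not pass (edgeR adjusted p = 0.608), and in that fit no gene passed, 427 having an unadjusted p under 0.05.

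More superficial cells had a Cilp UMI at the later age. With 2000 UMIs a cell, these were 21.7% of mutant and 31.1% of WT cells at day 19, and 9.53% of mutant and 10.5% of WT cells at day 13. In neutrophil-like cells the share was 0.369% in mutants at day 19 and 0 in the other libraries, which by the limit of 3 counts over the cells counted allows up to 0.728% in WT at day 19, 1.38% in mutants at day 13 and 3.26% in WT at day 13.

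Clusterin was higher in mutants. Clu stood at 2052 CPM in mutants and 1189 CPM in WT superficial cells at day 19, and at 1444 CPM in mutants and 1017 CPM in WT at day 13. Both mutant libraries lay above both WT libraries. The fitted change was 0.61 ± 0.208, a 1.53-fold higher level in mutants (edgeR adjusted p = 0.0413), a call that DESeq2 did not make (adjusted p = 0.125) and that was lost under 4 further settings and without any 1 library. Blood-like cells differed the same way, since neutrophil-like cells had 82.8 CPM of Clu in mutants and 10.8 CPM in WT at day 19, and 93.9 CPM in mutants and 45.6 CPM in WT at day 13. The part of stray RNA in this result was not tested.

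The other 4 genes did not pass the genotype test in superficial cells. Cilp2 stood at 1269.7 CPM in mutants and 999.5 CPM in WT at day 19, and at 994 CPM in mutants and 821 CPM in WT at day 13 (fitted log2 change 0.28 ± 0.198). Abi3bp was at 373 CPM in mutants and 343 CPM in WT at day 19, and at 399 CPM in mutants and 257 CPM in WT at day 13 (0.35 ± 0.168). The regulators Creb5 and Erg gave -0.11 ± 0.154 and -0.65 ± 0.254. Creb5 was at 181 CPM in mutants and 214 CPM in WT at day 19, and at 184 CPM in mutants and 173 CPM in WT at day 13, so its groups overlapped. Erg had 12.3 CPM in mutants and 28.0 CPM in WT at day 19, and 12.8 CPM in mutants and 13.5 CPM in WT at day 13. The edgeR adjusted p-values of these 4 genes ranged from 0.102 for Erg to 0.816 for Creb5, which does not show that their levels were equal.

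**Figure D4:**
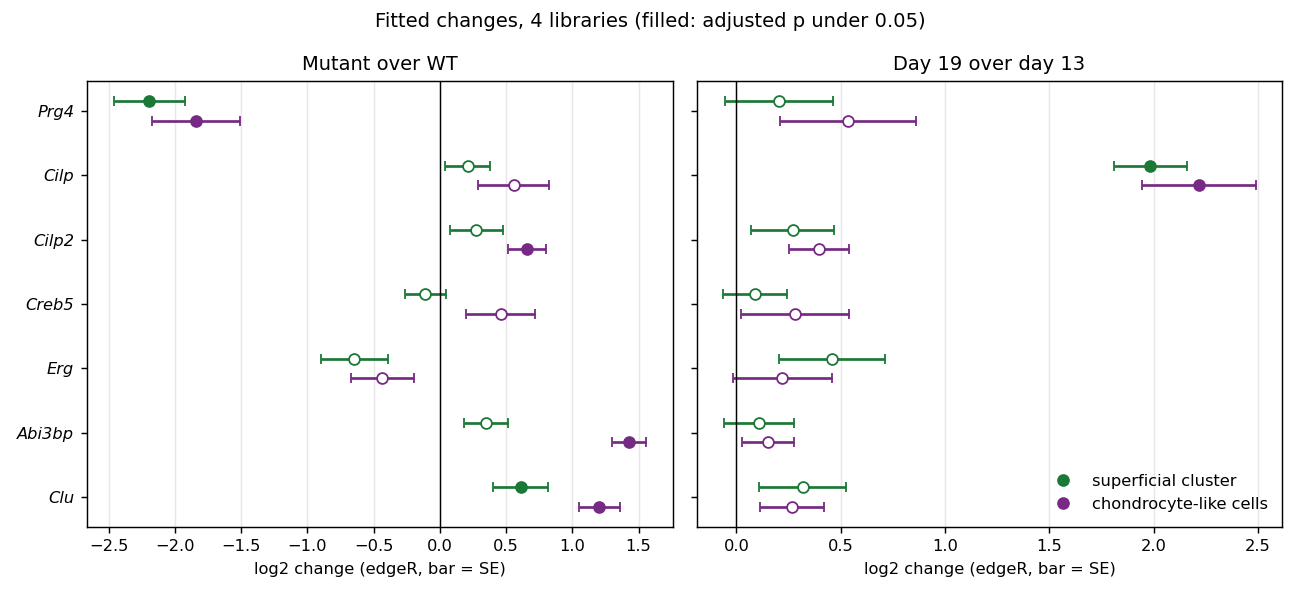
Log2 change fitted by edgeR for mutant over WT (left) and day 19 over day 13 (right), with its SE, in superficial cells (green) and in all chondrocyte-like cells (purple), filled where the adjusted p is under 0.05. Prg4 lies at -2.19 and -1.84 by genotype and Cilp at 1.98 and 2.22 by age.

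Over all chondrocyte-like cells, 4 of the 7 genes were called by genotype where 27.3% of all genes tested were, 14.5% higher and 12.8% lower (24.8% of the calls lower without TMM factors, against 46.8% with them). Prg4 stood at 329 CPM in mutants and 2097 CPM in WT at day 19, and at 447 CPM in mutants and 693 CPM in WT at day 13. Its fitted change was -1.84 ± 0.334, 3.58-fold lower in mutants (edgeR adjusted p = 0.00140). DESeq2 did not call it (adjusted p = 0.143), nor did the edgeR fit without the mutant library of day 19 (adjusted p = 0.0927) or of day 13 (0.0638). B cell-like cells, which should lack lubricin, differed the same way. They had 10.3 CPM in mutants and 22.5 CPM in WT at day 19, and 20.8 CPM in mutants and 41.2 CPM in WT at day 13. Some blood-like clusters had more. An erythroid-like cluster led by Tmcc2 had 102 CPM in mutants and 351 CPM in WT at day 19, but 78.4 CPM and 16.6 CPM at day 13. A neutrophil-like cluster led by Ltf had 62.9 CPM in mutants and 340 CPM in WT at day 19, and 43.6 CPM and 53.0 CPM at day 13. The part of stray RNA in the result was not tested.

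Abi3bp, Clu and Cilp2 were higher in mutant chondrocyte-like cells. Abi3bp was at 219.7 CPM in mutants and 81.2 CPM in WT at day 19, and at 217 CPM in mutants and 62.5 CPM in WT at day 13, a fitted change of 1.43 ± 0.128 (edgeR adjusted p = 5.70e-06). Clu was at 542 CPM in mutants and 261 CPM in WT at day 19, and at 552 CPM in mutants and 166 CPM in WT at day 13 (1.20 ± 0.156, edgeR adjusted p = 0.000119). Cilp2 was at 265 CPM in mutants and 186 CPM in WT at day 19, and at 246 CPM in mutants and 109 CPM in WT at day 13 (0.66 ± 0.146, edgeR adjusted p = 0.00507). For each, both mutant libraries lay above both WT libraries. Neutrophil-like cells had 22.7 CPM of Abi3bp in mutants and 3.6 CPM in WT at day 19, and 34.5 CPM of Cilp2 in mutants and 12.1 CPM in WT. The mostly mutant Myoc cluster had Abi3bp at 297 to 372 CPM, and the mostly WT Il17b cluster at 1.5 to 3.4 CPM. At day 19 Clu was at 296 CPM in mutants and 298 CPM in WT in cells led by Frzb. In cycling cells it was at 181 CPM and 57.8 CPM. The part of cluster make-up in these calls was not tested.

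By age, Cilp was the only 1 of the 7 called in chondrocyte-like cells, against 0.918% of all genes tested. It stood at 68.3 CPM in mutants and 72.6 CPM in WT at day 19, and at 25.5 CPM in mutants and 8.2 CPM in WT at day 13. The fitted change was 2.22 ± 0.274 (edgeR adjusted p = 0.00278), which DESeq2 did not call (adjusted p = 0.193).

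Chondrocyte-like cells outside the superficial cluster also differed. Cilp there was at 10.5 CPM in mutants and 3.3 CPM in WT at day 19, and at 4.4 CPM in mutants and 0.3 CPM in WT at day 13 (2.32 ± 0.404, edgeR adjusted p = 0.00315). Neutrophil-like cells had 12.8 CPM in mutants and 2.3 CPM in WT at day 19, 68 of their 70 UMIs in mutants lying in 1 of the 2 neutrophil-like clusters, while B cell-like cells had 2.81 CPM in mutants and 0.67 CPM in WT. Creb5 was at 13.7 CPM in mutants and 10.8 CPM in WT at day 19, and at 22.1 CPM in mutants and 4.4 CPM in WT at day 13 (1.15 ± 0.360, edgeR adjusted p = 0.0438), against 2.5 to 6.8 CPM in neutrophil-like cells. In all, 6 of the 7 genes were called in these cells, against 26.8% of all genes tested, with Prg4 alone lower in mutants. The mostly mutant Cryba2 cluster held 240 of the 310 Cilp UMIs of mutants at day 19. It held 489 of their 802 Creb5 UMIs at day 13. In cycling cells Cilp was at 5.1 CPM in mutants and 5.3 CPM in WT at day 19. At day 13 it was at 3.0 CPM and 0.9 CPM. In cells led by Frzb, Creb5 was at 12.4 CPM in mutants and 20.2 CPM in WT at day 19. At day 13 it was at 15.6 CPM and 5.8 CPM. The part of cluster make-up in these calls was not tested.

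Within single chondrocyte-like clusters, Prg4 was lower in mutants in cycling cells and in cells led by Frzb and Matn1. Cycling cells had 98.0 CPM of Prg4 in mutants and 802 CPM in WT at day 19, and 91.1 CPM in mutants and 265 CPM in WT at day 13 (-2.45 ± 0.275, edgeR adjusted p = 0.000207), in a cluster where 16.8% of genes were called. The Frzb cells had 54.5 CPM in mutants and 257 CPM in WT at day 19, and 76.7 CPM in mutants and 112 CPM in WT at day 13 (-1.37 ± 0.218, edgeR adjusted p = 4.14e-05), where 4.08% of genes were called. In cells led by Pcp4 and Sfrp5, Prg4 was at 4.9 to 23.7 CPM, against 10.3 to 41.2 CPM in B cell-like cells. The erythroid-like cluster led by Tmcc2 had 102 CPM in mutants and 351 CPM in WT at day 19. The neutrophil-like cluster led by Ltf had 62.9 CPM in mutants and 340 CPM in WT, so the Frzb cells lay below both at that age. At day 13 these blood-like clusters had 78.4 and 43.6 CPM in mutants, and 16.6 and 53.0 CPM in WT. The part of stray RNA in the Frzb cells was not tested.

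The tendon-like cells showed a partly different pattern. Prg4 in them was at 1139.7 CPM in mutants and 5781 CPM in WT at day 19, and at 1301 CPM in mutants and 661 CPM in WT at day 13, so the CPM of mutants was lower at the later age and higher at the earlier one. A few cells carried these sums: with 2000 UMIs a cell the median was 0 Prg4 UMIs in all 4 libraries, and 5% of mutant and 10.8% of WT cells at day 19 and 6.21% of mutant and 2.65% of WT cells at day 13 had 10 or more. The shares with any Prg4 UMI were 29.2% in mutants and 38.6% in WT at day 19, and 29.4% in mutants and 24.2% in WT at day 13, with overlapping exact intervals at each age. Cilp was at 558 CPM in mutants and 195 CPM in WT at day 19, and at 131 CPM in mutants and 85.5 CPM in WT at day 13. The fit called Cilp (1.14 ± 0.249, edgeR adjusted p = 0.0464) and Clu (1.43 ± 0.258, edgeR adjusted p = 0.0142) higher in mutants, against 1.40% of all genes, and Cilp higher at day 19 (1.60 ± 0.251, edgeR adjusted p = 0.0113), against 0.833%. Clu was at 2171 CPM in mutants and 1142 CPM in WT at day 19, and at 1652 CPM in mutants and 471 CPM in WT at day 13. Synovial lining markers in these cells summed to 918 CPM in mutants and 2009.7 CPM in WT at day 19, and to 1377 CPM in mutants and 593 CPM in WT at day 13, which is the order of Prg4. The part of this shift was not tested.

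Within the superficial cluster Cilp and Creb5 accompanied Prg4 cell by cell. At day 19, 28.6% of mutant cells with a Prg4 UMI and 6.03% of those without had a Cilp UMI, and in WT the shares were 33.9% and 0 of 16 cells. At day 13 they were 15.7% and 0.901% in mutants, and 14.2% and 0 of 117 cells in WT. Creb5 was found in 39.3% of Prg4-positive and 19.8% of Prg4-negative mutant cells at day 19, and in 40.6% and 12.5% of WT cells. The shares at day 13 were 36.7% and 21.6% in mutants and 36.4% and 6.84% in WT. Both genes were therefore more frequent among cells with Prg4 in each of the 4 libraries.

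Cilp2, Abi3bp and Clu did not follow Prg4 in this way within the superficial cluster. Abi3bp was found in 46.6% of mutant cells with Prg4 and 45.7% without at day 19, and differed by under 2 percentage points in every library. Cilp2 in WT at day 13 was in 42.8% of cells with Prg4 and in 72.6% of cells without, while in mutants the shares were 56.2% and 56.3%. Clu was more frequent with Prg4 in mutants at day 19, at 80.5% and 63.8%, and less frequent in WT at day 13, at 64.8% and 73.5%. Over all chondrocyte-like cells, which mix clusters, each of these genes was more frequent with Prg4 in every library. In WT at day 19 the shares with and without Prg4 were 69.0% and 13.8% for Cilp2, 37.2% and 9.77% for Abi3bp, and 59.0% and 22.8% for Clu. In mutants at day 19 they were 49.9% and 24.7%, 41.1% and 32.5%, and 60.8% and 37.8%. All of these are shares of cells within single libraries, given as a description.

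**Figure D5:**
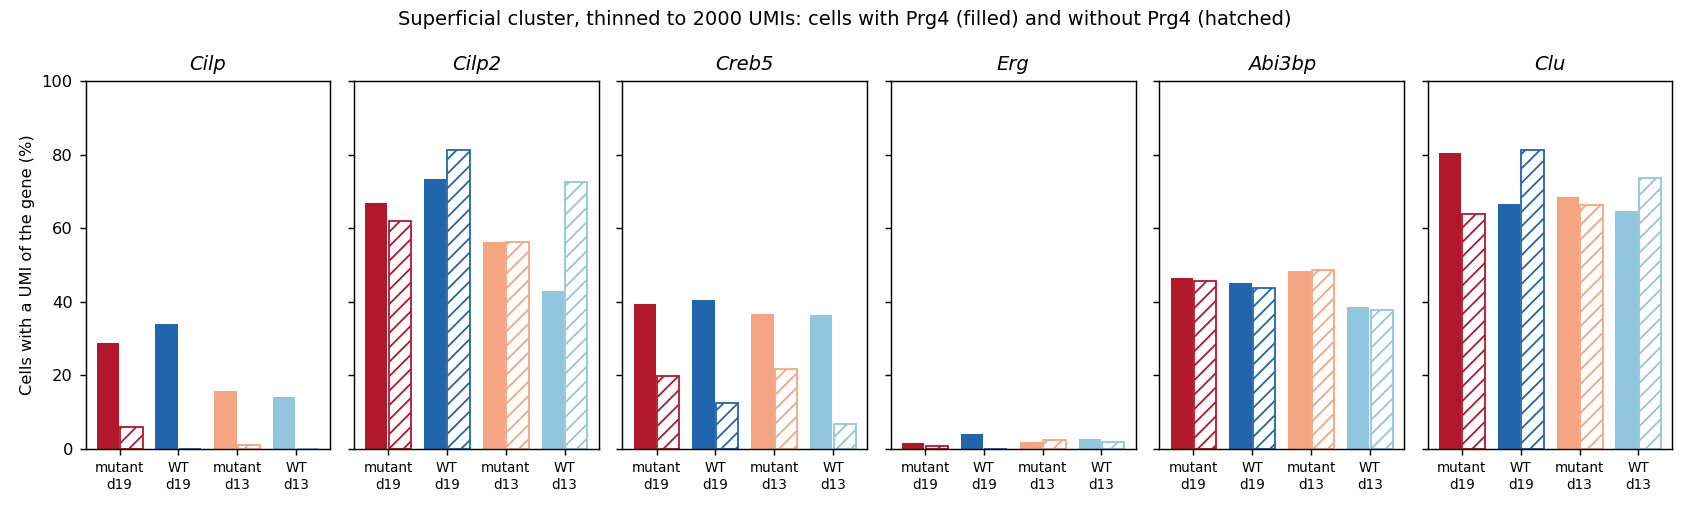
Share of superficial cells with a UMI of each gene, among cells with Prg4 (filled) and without Prg4 (hatched), in the 4 libraries, each cell thinned to 2000 UMIs. Cilp and Creb5 are more frequent in filled than in hatched bars in all 4 libraries, Abi3bp differs little.

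Over 91 combinations of cluster and library, which share libraries and depth, the genes whose log2 level was most like that of Prg4 among 7389 genes were Sema3e (Pearson r = 0.80), Gas1 (0.77), Cilp (0.74), Angptl1 (0.72) and Creb5 (0.72). Sema3e encodes a secreted semaphorin and Gas1 a membrane protein that binds hedgehog ligands. The closest to Cilp were Sema3e (0.75), Prg4 (0.74), Htra4 (0.73), Gas1 (0.70) and Thbs4 (0.69), a thrombospondin of tendon and cartilage matrix. Of the other members, Cilp2 ranked 10, Abi3bp 27 and Clu 58 for likeness to Prg4, and Erg had r = 0.26. These ranks are for log2(CPM + 1). With a pseudocount of 10, 4 of the 5 genes were shared for each target: Gas1 came first and Creb5 ranked 3 for Prg4, with Cdon in place of Angptl1, Creb5 took the place of Htra4 for Cilp, and Abi3bp ranked 41 for Prg4.

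Further genes of the superficial zone were higher or not called in mutants. Of 10 such genes tested in chondrocyte-like cells, 5 were higher, 0 lower and 5 did not pass, where 14.5% of all genes tested were higher, with a median log2 change of 0.91 against 0.01 for all genes. Those with the largest change were Pdgfra, a receptor of mesenchymal cells (2.80 ± 0.149, edgeR adjusted p = 8.68e-08), Dkk3 (2.03 ± 0.187), Tppp3 (1.63 ± 0.177) and Igfbp5, which binds insulin-like growth factors (1.28 ± 0.144). In the superficial cluster itself, 2 of 9 were higher, Dkk3 (0.79 ± 0.168) and Pdgfra (0.58 ± 0.189), and 0 lower, where 4.45% of all genes were higher, with a median of -0.08. By age Thbs4 passed in both groups of cells, at 1.03 ± 0.159 in superficial cells.

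Among 18 regulators of Prg4, signals and transcription factors known to alter lubricin, 5 were higher and 1 lower in mutant chondrocyte-like cells and 12 did not pass (median 0.18), where 27.3% of all genes were called. The ligand Tgfb3 (1.93 ± 0.133) changed most, followed by Nfatc2, a calcium-dependent transcription factor, which was lower (-0.97 ± 0.165), Crem (0.89 ± 0.178) and Tgfb2 (0.86 ± 0.123). In superficial cells 4 of the 18 were higher and 0 lower, where 8.48% of all genes were called, with a median of 0.10: the receptor Tgfbr1 (0.70 ± 0.185), Foxo1 (0.57 ± 0.162), Tgfb1 (0.53 ± 0.157) and Tgfb2 (0.51 ± 0.158). None of the 18 passed the age test in either group of cells.

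Partners of lubricin and enzymes of hyaluronan synthesis split. Of 9 genes in chondrocyte-like cells, 4 were higher, 2 lower and 3 did not pass (median 0.31), again where 27.3% of all genes were called. The receptors Tlr2 (2.50 ± 0.151) and Tlr4 (1.36 ± 0.358), to which lubricin is known to bind, and Fn1, encoding fibronectin (0.97 ± 0.170), were higher in mutants, and the lectin gene Lgals3 was lower (-1.24 ± 0.163). In superficial cells 1 of 7 was higher, Tlr2 (1.57 ± 0.197, edgeR adjusted p = 3.31e-13), and 0 lower, beside 8.48% called of all genes. At day 19 Lgals3 (1.21 ± 0.169), Has1, a hyaluronan synthase (0.92 ± 0.290), and Tlr2 (0.62 ± 0.192) were higher than at day 13 in superficial cells, 3 of the 7 tested, beside 3.27% called of all genes.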

How the data were processed

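The authors deposited UMI counts, not normalized, for each gene in each barcode, which per the file headers come from Cell Ranger 3.1.0; the submitters' processing notes name mm10 and, without a role, Seurat 3. Of 31053 features, 30934 matched GENCODE M21. Members, lists and markers were chosen with earlier results of these data known. Doublets were scored by Scrublet in scanpy 1.11.5 and removed above a score of 0.25, set after its automatic threshold had marked 0 and 1 barcodes in 2 libraries; 243, 83, 124 and 101 were removed from mutant and WT at day 19 and mutant and WT at day 13. Cells of all libraries were clustered together, without batch correction, on 2000 variable genes other than the members, 30 principal components and 15 neighbours, by Leiden at resolution 1.0 (igraph 0.11.9, Python 3.11.15). Clusters were named from markers among their 25 leading genes. A second rule, 10 or more chondrocyte markers 3-fold above blood-like clusters, was chosen once the clusters were known and placed 6 clusters in the class, the superficial cluster among them.

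Counts were summed per library and tested in R 4.3.3 by the quasi-likelihood method of edgeR 4.0.16 (with limma 3.58.1), TMM scaling, filterByExpr, additive genotype and age, 1 residual degree of freedom and Benjamini-Hochberg adjustment over all genes at 0.05. The p-values thus reflect how unlike the ages are and a dispersion shared between genes, never the spread between mice. In the superficial cluster they rest on the shared dispersion alone, not on how unlike the ages are for a gene. The fits were tested on simulated data. Ratios at 1 age use plain CPM, and 3 counts per library stood in for 0. Their intervals are exact, from the Clopper-Pearson interval of 1 library's share of the counts of both. Intervals of single CPM values are exact Poisson ones. The 95% intervals of shares are Clopper-Pearson. Named genes are the 7 members, up to 4 per list by size of change among those passing the genotype test in chondrocyte-like cells, the 5 most like Prg4 and Cilp, and up to 3 leading genes per cluster; Vit and list genes named within the superficial cluster or by age were chosen after their values were seen. DESeq2 1.42.0, other scalings, filters, cell sets and leaving out libraries were alternatives.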

Additional observations from a re-analysis of the deposited data

Results flagged for a closer look

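The comparisons below, each of 1 gene, went in opposite directions at the 2 ages or in the 2 genotypes, each with a counting interval clear of 0 on both sides. With 1 library per group the differences were not tested. In superficial cells Prg4 was lower at day 19 than at day 13 in mutants (log2 ratio -0.27) and higher in WT (0.78), a difference of -1.05. Over all chondrocyte-like cells the ratios were -0.44 in mutants and 1.60 in WT, a difference of -2.04.

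In fibroblast and tendon-like cells Prg4 was lower in mutants than in WT at day 19 (-2.34) and higher at day 13 (0.98), a difference of -3.32, and day 19 over day 13 gave -0.19 in mutants and 3.13 in WT, again -3.32. In the same cells the ratio of day 19 to day 13 was -0.19 in mutants and 0.13 in WT for Cilp2, a difference of -0.33, and -0.21 and 0.42 for Abi3bp, a difference of -0.63. Creb5 was lower in mutants at day 19 (-0.42) and higher at day 13 (0.29), a difference of -0.71, the same as between ages. In chondrocyte-like cells Creb5 differed by -0.19 at day 19 and 1.46 at day 13, a difference of -1.65, and by age by -0.49 in mutants and 1.17 in WT, also -1.65.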

How the results depend on the processing

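No paired analysis was possible because each group is 1 library and the labels give no replicate numbers that pair samples. The alternatives for fits in the superficial cluster, other than the coarser clustering for genotype, and the doublet score were chosen after seeing the data. Leaving out a library fits the effect alone on 3 libraries, where a lone library is assumed to vary like the others. The cause of these shifts was not tested.

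For genotype in chondrocyte-like cells, 4 members and 4163 genes were called, against 2398 genes with DESeq2, 2 members and 865 genes over all kept cells, and 2 to 6 members and 919 to 3888 genes without 1 library. For age there, 1 member and 140 genes were called, against 0 members and 82 genes with DESeq2, 551 genes without a filter on low counts, 76 with doublets kept, 38 with members allowed in the clustering, 1218 over all kept cells, 0 members and 0 genes with age alone (230 at an unadjusted p under 0.05) and 0 of each without 1 library. For genotype in superficial cells, 2 members and 886 genes were called. There were 1 member and 184 genes with DESeq2, 1 and 557 without TMM factors, 1 and 169 with genotype alone, 1 member with doublets kept or members in the clustering, and 0 to 2 members and 66 to 622 genes without 1 library. For age there, 1 member and 341 genes were called, against 25 genes with DESeq2, 114 without TMM factors, 2 members with members in the clustering, 0 members and 0 genes with age alone, and 0 members and 0 to 4 genes without 1 library.

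The median log2 ratio of the 7 genes in chondrocyte-like cells, mutant over WT, was -0.09 at day 19 and 1.46 at day 13, and -0.21 and 1.21 with TMM factors. Shares of superficial cells with Prg4 were 57.7% in mutants at day 19, 48.6% in mutants and 69.4% in WT at day 13 when thinned to 1000 UMIs, and 81.4%, 74.5% and 82.5% without thinning. Of 238 values of single genes, not counting fits without 1 library, 212 kept their direction and side of the threshold, and 9 turned direction. Genes that passed neither in the main fit nor in the alternative could count as kept. By age, all kept cells gave -0.038 for Prg4, -0.33 for Cilp2, -0.46 for Creb5, -0.56 for Abi3bp and -0.29 for Clu, on the log2 scale. In superficial cells Creb5 turned to 0.10 by genotype with 1000 genes per barcode and 0.16 in the coarser clustering, and by age Prg4 turned to -0.038 and Creb5 to -0.16 with members in the clustering.

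Without 1 library, genotype changes spanned -0.80 to 2.26 for Cilp and -0.056 to 0.99 for Creb5 in chondrocyte-like cells, and -1.06 to 1.56 for Cilp in superficial cells. Age changes in chondrocyte-like cells spanned -0.93 to 1.86 for Prg4, -0.052 to 0.87 for Cilp2, -0.30 to 0.90 for Creb5, -0.16 to 0.59 for Erg, -0.70 to 1.07 for Abi3bp and -0.40 to 1.08 for Clu. In superficial cells they spanned -1.37 to 1.60 for Prg4, -0.017 to 0.21 for Creb5, -0.14 to 1.04 for Erg, -0.16 to 0.39 for Abi3bp and -0.10 to 0.70 for Clu. Prg4 by genotype kept its sign, at -2.57 to -1.08 in chondrocyte-like and -2.52 to -1.85 in superficial cells. Erg in superficial cells rests on 39 to 66 UMIs per library.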
